A study of Mus musculus with 16 samples.

Results

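Chemokine receptors are G protein-coupled receptors that guide thymocytes between the zones of the thymus. The receptors *Cxcr4*, *Ccr9*, *Ccr4*, *Ccr7* and *Cxcr3* were chosen by gene symbol, and these 5 of the 24984 genes in the DP count table were also found in the CD8 count table, which lists 24974 genes. Poly(A) RNA-seq libraries came from mouse thymocytes in which *Tox4*, which encodes an HMG-box protein, was intact or conditionally deleted. DP cells, which carry both CD4 and CD8 on their surface, gave 3 control and 3 cKO libraries, and CD8 cells gave 5 control and 5 cKO libraries. Controls carried floxed *Tox4* alleles (Tox4 F/F) without Cre, and cKO mice carried the same alleles with Lck-Cre (Tox4 F/F; Lck-cre), which removes exons 4 to 6. Cre was driven by the proximal *Lck* promoter, active in T lineage cells from the DN3 stage, before the DP stage. The floxed allele was made on a C57BL/6 background, and per the study's methods the mice were littermates of matched sex and 6 to 8 weeks old, with no treatment. DP cells for RNA-seq were obtained by flow cytometric sorting, and CD8 cells were sorted as TCRβ+CD8+. The questions asked were how much of each receptor the cells carried, whether this differed between control CD8 and control DP cells, and whether it differed between cKO and control cells of either type.

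Chemokine receptors bind small secreted chemokines and signal through inhibitory G proteins to the actin cytoskeleton, so that a cell moves up a chemokine gradient. In the cortex, DP cells respond to CXCL12 through CXCR4 and to CCL25, a product of thymic epithelium, through CCR9. After positive selection, CCR4 binds CCL17 and CCL22 of medullary dendritic cells, and CCR7 binds CCL19 and CCL21 and draws maturing cells into the medulla. CXCR3, the receptor of CXCL9, CXCL10 and CXCL11, is best known from effector and memory CD8 T cells.

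Between 14583336 and 25981683 fragments per DP library and between 8514135 and 13530783 per CD8 library were counted on genes. Levels are given as TPM, that is, counts divided by exonic gene length and then scaled to the same total in each library, which allows comparison between genes. *Tox4* was at 104, 107 and 113 TPM in the DP control libraries and at 86.5, 89.0 and 77.8 TPM in the DP cKO libraries. In CD8 cells, *Tox4* was at 139, 141, 148, 142 and 129 TPM in control libraries 1 to 5 and at 122, 137, 131, 162 and 133 TPM in cKO libraries 1 to 5. Counts of the whole gene include the exons that are not floxed, so *Tox4* is a weak check of the labels. The library labelled CD8 cKO replicate 4 lay above the 5 CD8 controls in *Tox4*. Cell type markers followed the labels. *Rag1*, a gene of the recombinase that assembles T cell receptor genes in DP cells, was at 3606 ± 605 TPM (SD, n = 3) in DP control and 25.5 ± 24.8 TPM (SD, n = 5) in CD8 control libraries. *Cd4* was at 1675 ± 197 TPM (SD, n = 3) and 30.7 ± 32.9 TPM (SD, n = 5), and *Nkg7*, a granule gene of CD8 T cells, at 10.2 ± 3.74 TPM (SD, n = 3) and 507 ± 80.1 TPM (SD, n = 5) in the same groups.

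Some libraries stood apart. CD8 control replicate 1 had counts on 17741 genes, against 13708 to 15054 in the other 15 libraries. Within the CD8 cells of both genotypes, *Cd4* was higher in libraries 1 and 2 than in libraries 3 to 5, at 62.1, 70.9, 6.31, 3.64 and 10.7 TPM in control and at 69.7, 81.6, 6.78, 5.79 and 8.33 TPM in cKO libraries 1 to 5. *Xist*, which is transcribed from the inactive X chromosome of females, was below 1 TPM in the 6 DP libraries and in CD8 control libraries 3 and 4. It was at 884, 946 and 593 TPM in CD8 control libraries 1, 2 and 5. In CD8 cKO libraries 1 to 5 *Xist* was at 859, 803, 0.0626, 5.003 and 913 TPM. In the library labelled CD8 cKO replicate 4 the Y-linked gene *Ddx3y* was at 65.4 TPM beside the 5.003 TPM of *Xist*. Receptor values with and without these libraries are given where they differ. No 2 libraries of a group agreed within counting noise, with a chi-square per degree of freedom of at least 5.91. Nothing in the labels says which animals share a litter, and p-values measure the spread between these libraries.

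The receptor genes lie on 4 chromosomes of mm10. *Cxcr4* lies at chr1:128588199-128592299 on the minus strand with 1814 exonic bases, and *Ccr7* at chr11:99144199-99155077 on the minus strand with 1975. *Ccr4* (chr9:114490316-114496544, minus strand, 2787 exonic bases) and *Ccr9* (chr9:123767211-123783457, plus strand, 4392 exonic bases) share a chromosome. *Cxcr3* is X-linked, at chrX:101731535-101734147 on the minus strand with 1609 exonic bases. No annotated gene overlapped any of the 5 receptors. RefSeq promoters, from 250 bases before to 50 bases after the start (GRCm38.p6, the same build as mm10), were matched for 4 of the 5 genes. The promoters of *Ccr9* (chr9:123766961-123767260, plus strand), *Cxcr3* (chrX:101734098-101734397, minus strand) and *Ccr4* (chr9:114496495-114496794, minus strand) are printed 5′ to 3′ on the strand of the gene. The first and second belong to receptors that differed between the cell types, and the last to the receptor that varied most closely with *Ccr9* among libraries of a group. Capitals mark matches on either strand to CACCC, a core that Klf factors bind, CAGNTG, the E-box, TGTGGT, a Runx core, and GTAAACA, a Foxo core.
Ccr9: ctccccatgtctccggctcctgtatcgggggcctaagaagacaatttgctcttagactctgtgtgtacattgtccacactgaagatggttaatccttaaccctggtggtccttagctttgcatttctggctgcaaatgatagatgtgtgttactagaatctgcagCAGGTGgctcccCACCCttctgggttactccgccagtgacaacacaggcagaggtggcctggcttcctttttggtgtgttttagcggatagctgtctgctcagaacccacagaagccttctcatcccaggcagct
Cxcr3: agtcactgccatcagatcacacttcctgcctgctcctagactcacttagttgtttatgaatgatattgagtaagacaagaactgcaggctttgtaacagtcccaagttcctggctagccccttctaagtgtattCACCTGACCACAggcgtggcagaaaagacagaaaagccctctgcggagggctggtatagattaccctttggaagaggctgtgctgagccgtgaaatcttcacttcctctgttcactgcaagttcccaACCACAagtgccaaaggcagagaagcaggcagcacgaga
Ccr4: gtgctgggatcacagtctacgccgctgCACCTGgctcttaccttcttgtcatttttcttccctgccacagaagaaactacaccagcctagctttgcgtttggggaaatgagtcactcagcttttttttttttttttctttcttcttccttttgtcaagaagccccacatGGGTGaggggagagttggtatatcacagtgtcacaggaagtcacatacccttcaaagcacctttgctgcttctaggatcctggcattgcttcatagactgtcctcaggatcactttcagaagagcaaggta
*Ccr9* and *Ccr4* each held 1 match to CACCC and 1 to CAGNTG, and *Cxcr3* held 1 match to CAGNTG and 2 to TGTGGT, of which 1 directly follows the E-box without overlap. The promoter of *Cxcr4* held 1 match to CACCC, and GTAAACA was matched in none of the 4. Over all 32851 promoters of this length, 57.5% held CACCC, 51.4% CAGNTG, 16.8% TGTGGT and 3.65% GTAAACA, so these matches are a description and not evidence of binding. The GC content was 51.3% for *Ccr9*, 49.3% for *Cxcr3*, 46.3% for *Ccr4* and 59.3% for *Cxcr4*, against a median of 52.7%.

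Of the receptors of the cortex, *Ccr9* was abundant in DP cells. It was at 983, 768 and 784 TPM in DP control libraries 1 to 3 and at 844, 669 and 576 TPM in DP cKO libraries 1 to 3. In CD8 cells *Ccr9* was at 527, 584, 417, 341 and 399 TPM in control libraries 1 to 5 and at 485, 532, 415, 331 and 432 TPM in cKO libraries 1 to 5. The DP control libraries were therefore above the 5 CD8 control libraries, while cKO and control libraries overlapped in either cell type. Among CD8 libraries of both genotypes, libraries 1 and 2 had the most *Ccr9* and library 4 the least. *Cxcr4*, which holds DP cells in the CXCL12-rich cortex, was at 500.0, 177 and 148 TPM in DP control and at 501, 175 and 175 TPM in DP cKO libraries. Library 1 of either genotype thus stood far above libraries 2 and 3, and the genotypes overlapped. *Cxcr4* was at 399, 393, 432, 427 and 299 TPM in CD8 control and at 444, 386, 554, 575 and 278 TPM in CD8 cKO libraries. The CD8 values lay between the high DP library and the low DP libraries, apart from cKO libraries 3 and 4, which were above them all.

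Of the receptors of medullary entry, *Ccr4* was at 103, 62.0 and 47.7 TPM in DP control libraries 1 to 3 and at 63.6, 28.4 and 36.3 TPM in DP cKO libraries 1 to 3. In CD8 control libraries 1 to 5 it was at 109.7, 147, 40.5, 35.2 and 51.7 TPM, and in cKO libraries 1 to 5 at 131, 136, 33.8, 34.1 and 48.3 TPM. CD8 libraries 1 and 2 of either genotype carried more *Ccr4* than the 6 other CD8 libraries, and in DP cells library 1 was the highest of its genotype. *Ccr7*, whose loss leaves maturing thymocytes in the cortex, was at 48.6, 29.5 and 24.5 TPM in DP control libraries and at 17.1, 16.6 and 13.6 TPM in DP cKO libraries. Each DP cKO library was below each DP control library. *Ccr7* was far higher in CD8 cells, at 596, 515, 1142, 1229.7 and 967 TPM in control and at 521, 538, 1107, 1044 and 867 TPM in cKO libraries 1 to 5. Here libraries 1 and 2 were the lowest of either genotype, the reverse of *Ccr4* and *Ccr9*.

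*Cxcr3* was the least abundant receptor. It was at 1.76, 3.47 and 1.02 TPM in DP control and at 0.0850, 0.358 and 1.35 TPM in DP cKO libraries, values that rest on 16, 37, 10, 1, 3 and 21 fragments. In CD8 cells *Cxcr3* was at 10.2, 5.92, 4.52, 10.7 and 5.84 TPM in control and at 16.5, 8.18, 8.36, 7.33 and 8.25 TPM in cKO libraries, from 22 to 97 fragments each. The lowest CD8 value was above the highest DP value, and CD8 cKO replicate 1 stood above the rest. Counting error is large for *Cxcr3* in DP cells, and a difference between genotypes would be hard to detect there at this depth.

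**Figure D1:**
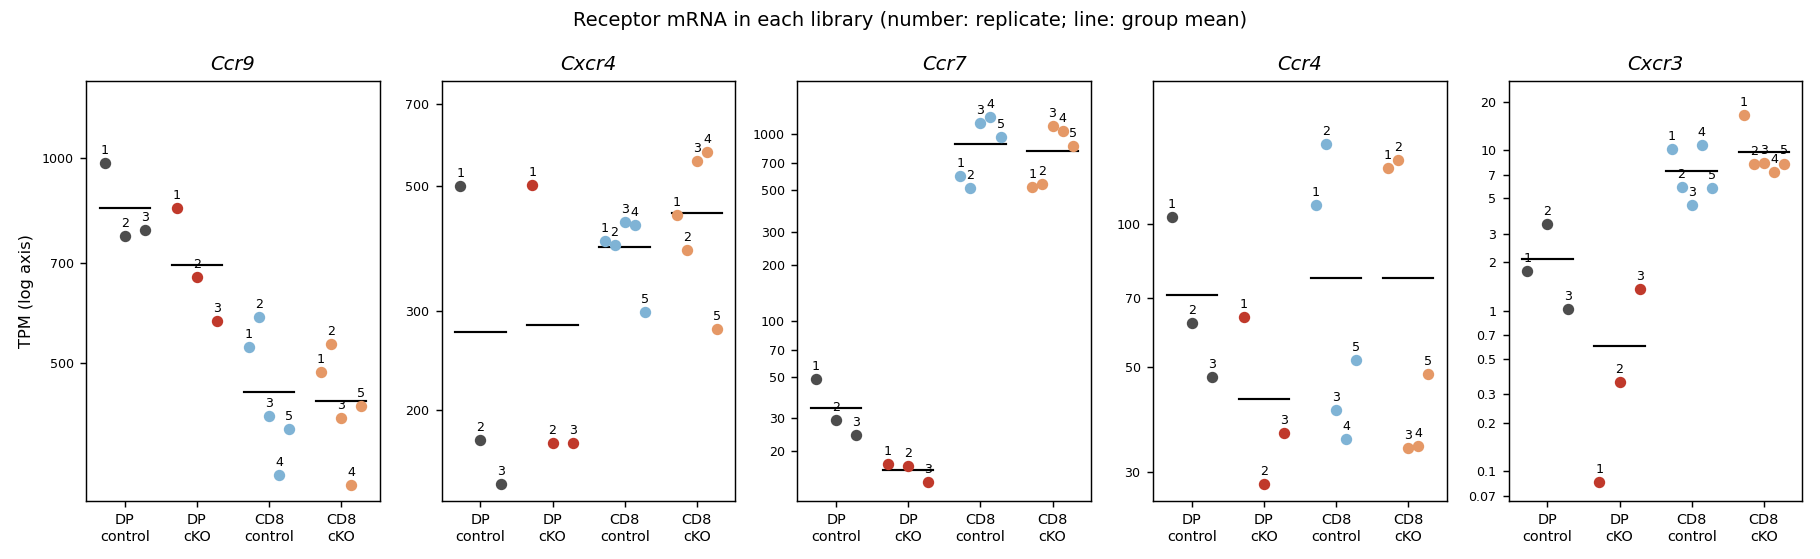
Level of each receptor in each library, in TPM on a log axis with its own range for each receptor; points are libraries, numbers are replicate numbers and lines are group means. *Ccr7* and *Cxcr3* sit higher and *Ccr9* lower in the CD8 control than in the DP control libraries, and the 3 DP cKO libraries lie below the 3 DP control libraries in *Ccr7*.

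The order of levels was the same in each of the 6 DP libraries. By mean TPM in DP control cells, *Ccr9* (845 ± 119.6, SD, n = 3) came before *Cxcr4* (275 ± 195), *Ccr4* (71.0 ± 28.9), *Ccr7* (34.2 ± 12.7) and *Cxcr3* (2.09 ± 1.26). The ranges of *Ccr4* and *Ccr7* overlapped in DP control cells, whereas the other neighbours in this order did not overlap. In CD8 control cells the order was *Ccr7* (889.8 ± 321, SD, n = 5), *Ccr9* (454 ± 99.0), *Cxcr4* (389.9 ± 53.8), *Ccr4* (76.9 ± 49.3) and *Cxcr3* (7.45 ± 2.83). *Ccr9* and *Cxcr4* did not differ there beyond their spread, and *Ccr7* and *Ccr9* overlapped through libraries 1 and 2. CD8 cKO cells had *Ccr7* at 815 ± 276, *Cxcr4* at 447 ± 122, *Ccr9* at 439 ± 76.0, *Ccr4* at 76.8 ± 52.5 and *Cxcr3* at 9.73 ± 3.83 TPM (SD, n = 5), and *Cxcr4* and *Ccr9* again overlapped. In DP cKO cells the means were 696 ± 136 for *Ccr9*, 284 ± 189 for *Cxcr4*, 42.8 ± 18.5 for *Ccr4*, 15.8 ± 1.90 for *Ccr7* and 0.599 ± 0.668 TPM for *Cxcr3* (SD, n = 3). In counts scaled to library size (CPM), without division by gene length, *Ccr9* came first in CD8 cells of both genotypes.

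Control CD8 cells carried more *Ccr7* and *Cxcr3* and less *Ccr9* than control DP cells. A gene was called where its adjusted p was under 0.05, its fold change at least 1.5 and its mean TPM at least 1, and tests were 2-sided. By the quasi-likelihood test of edgeR, with p-values adjusted after Benjamini and Hochberg (BH) over 11758 genes, 3 of the 5 receptors were called, against 44.3% of all genes tested. The 2 receptors called higher in CD8 cells compare with 22.0% of genes called higher, and the 1 called lower with 22.3% called lower. The libraries of both cell types did not overlap for these 3 receptors, nor for 56.9% of the genes tested. A share of 3 in 5 is near these backgrounds, and only the single values are read. *Ccr7* was 25.1-fold higher in CD8 cells (log2 4.65, standard error 0.37, edgeR BH-adjusted p = 7.23e-07), higher in 5 of 5 CD8 libraries than in any DP control library. *Cxcr3* was 3.35-fold higher (log2 1.75, standard error 0.48, edgeR BH-adjusted p = 0.00807). With 1 library left out, its log2 value ran from 1.43 without DP control replicate 3 to 2.37 without DP control replicate 2. The edgeR BH-adjusted p of *Cxcr3* in these fits was at most 0.0371. *Ccr9* fell by 0.97 on the log2 scale to 0.511 of the DP level (standard error 0.15, edgeR BH-adjusted p = 0.000201). For each of the 3, the exact permutation test of normalized counts gave p = 0.0357, the smallest p that 5 libraries against 3 allow. In bulk samples, fewer cells of a type and less RNA per cell cannot be told apart. Cell type, the separate count tables and, in part, the *Xist* level cannot be told apart either. With CD8 control libraries 3 and 4 alone, a choice made after seeing the data, *Ccr7*, *Cxcr3* and *Ccr9* had log2 fold changes of 5.08, 1.81 and -1.21 (edgeR BH-adjusted p = 6.67e-07, 0.0288 and 7.75e-05).

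*Cxcr4* and *Ccr4* did not pass in this comparison, and both depended on which libraries entered. For *Cxcr4* the log2 fold change was 0.46 (standard error 0.31, edgeR BH-adjusted p = 0.212; exact permutation test, p = 0.214). Without DP control replicate 1, the library with 500.0 TPM, it was 1.15 (edgeR BH-adjusted p = 0.000137) and past the thresholds. For *Ccr4* it was 0.05 (standard error 0.42, edgeR BH-adjusted p = 0.933; exact permutation test, p = 0.821). With CD8 control libraries 3 to 5 alone, a choice made after seeing the data, *Ccr4* turned to -0.79 (edgeR BH-adjusted p = 0.0171), and with libraries 3 and 4 alone it was -0.95 (edgeR BH-adjusted p = 0.0141). Without CD8 control replicate 1 it was -0.12 (edgeR BH-adjusted p = 0.823).

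**Figure D2:**
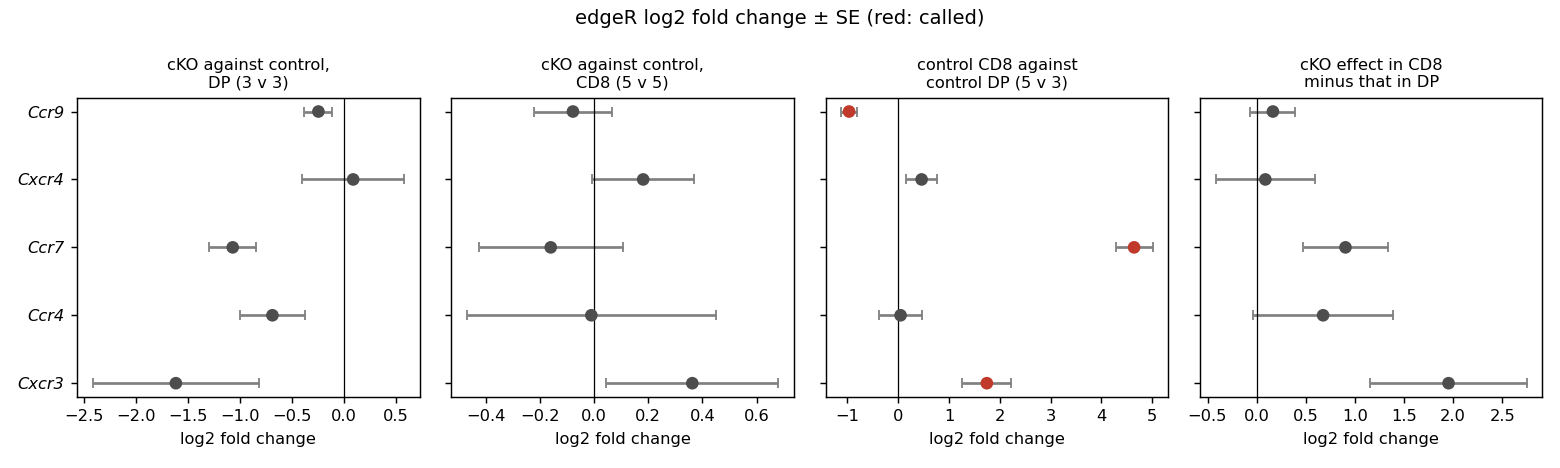
Log2 fold change of each receptor from edgeR with its standard error, in red where called, for cKO against control in DP and in CD8 cells, for control CD8 against control DP cells, and for the cKO change in CD8 minus that in DP cells; each panel has its own range. *Ccr7*, *Cxcr3* and *Ccr9* are called between the cell types, and no receptor is called in the other panels.

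Shares of other migration genes called between the cell types are to be read against the 44.3% called among all genes tested, 22.0% higher and 22.3% lower. Of 7 other chemokine receptors tested, 4 were called higher in CD8 cells and none lower: *Cxcr6*, *Ccr8*, *Cx3cr1* and *Cxcr5*, with log2 fold changes of 4.41, 3.18, 2.76 and 1.63. *Cxcr6* went from 1.57 ± 0.737 TPM (SD, n = 3) to 35.2 ± 7.81 TPM (SD, n = 5). The median over this list was 1.63, against -0.01 over all genes tested. Of 11 other guidance and egress receptors, 6 were called higher and 2 lower, with a median of 1.497. Among the former was *S1pr1*, the receptor for sphingosine-1-phosphate through which mature thymocytes leave the thymus, at 3.49 ± 1.99 TPM (SD, n = 3) in DP and 780.3 ± 156 TPM (SD, n = 5) in CD8 control cells (log2 7.76). *Gpr18*, *Gpr183* and *S1pr4* were higher by 4.96, 2.26 and 2.096, and *Plxnd1*, which thymocytes need to move from the cortex to the medulla after positive selection, and *S1pr2* were lower, at -4.35 and -0.89. Chemokine ligands were of low abundance in both cell types, and 3 of 7 tested (*Xcl1*, *Cxcl10* and *Ccl5*, at 3.26, 1.93 and 1.41) were called higher in CD8 cells and 1, *Cxcl16* at -1.85, lower, with a list median of 0.38. The groups overlapped for *Ccl5* and *Cxcl16*, and DESeq2 did not call *Cxcl16*. *Ccl21a*, which encodes a ligand of CCR7, was at 0 in the 16 libraries.

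Downstream of the receptors, 8 of 35 G proteins and effectors tested were called higher in CD8 cells and 10 lower, 51.4% of the list and near the 44.3% of all genes tested (22.0% higher, 22.3% lower), with a list median of -0.12. *Pik3cd* and *Gng2*, a PI3 kinase catalytic subunit and a G protein gamma subunit, were higher by 2.94 and 2.91, and *Elmo1* and *Rassf5* by 1.53 and 1.02. *Rhoh*, *Gnb2*, *Gnb5* and *Gng10* were lower, at -1.42, -1.09, -1.06 and -0.99. Of 13 tested genes of receptor desensitization, 8 were called higher and 1 lower, with a median of 0.84. *Rgs3*, *Rgs1* and *Rgs16*, which speed GTP hydrolysis by G proteins, were higher by 3.30, 3.22 and 2.57, the arrestin *Arrb2* by 1.82, and *Rgs14* was lower at -1.06. Of 21 transcription factors tied to these receptors or to maturation, 11 were called higher and 5 lower, with a median of 0.94. *Klf2*, which activates *S1pr1*, was higher by 6.24, *Eomes* by 5.93, the CD8 lineage factor *Runx3* by 4.09 and *Foxo1*, an activator of *Klf2* and *Ccr7*, by 2.92. *Zbtb7b*, the CD4 lineage factor, was lower at -2.31, and *Id3* and *Tcf12* at -0.97 and -0.83.

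Marker lists were read against the same shares, 44.3% of all genes called between the cell types, 22.0% higher and 22.3% lower. By edgeR, 9 of 10 DP cell markers were called lower in control CD8 than in control DP cells, with *Rag1* at -7.23, and 7 of 9 tested maturation markers were called higher and 1, *Itm2a* at -1.33, lower. Summed maturation markers were at 3733, 3392, 4751, 4917 and 4136 TPM in CD8 control and at 3549.7, 3566, 5219.6, 5463 and 4413 TPM in CD8 cKO libraries 1 to 5, lowest in libraries 1 and 2 as *Ccr7* was. Of 4 CD8 lineage markers 2 were called higher and 1 lower, of 3 CD4 lineage markers 2 were called lower, and of 4 regulatory T cell markers 3 were called higher and 1 lower. All 5 tested markers of natural killer and innate-like T cells, where *Cxcr3* is also found, were called higher in CD8 cells. This list was mostly *Il2rb*, at 514 ± 46.5 TPM (SD, n = 5) in CD8 control cells. *Zbtb16* and *Klrb1c* were at 1.78 ± 0.969 and 4.98 ± 1.06 TPM there, and *Eomes* and *Tbx21* are also on the transcription factor list. The part of such cells in *Cxcr3* was not tested. Of B cell, myeloid and cycling markers, 1 of 5, 4 of 8 and 3 of 4 were called lower and 0 higher, of 2 epithelial markers 1 was called in each direction, *Sox13* of the gamma-delta list was called higher, and 0 erythroid markers could be tested.

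**Figure D3:**
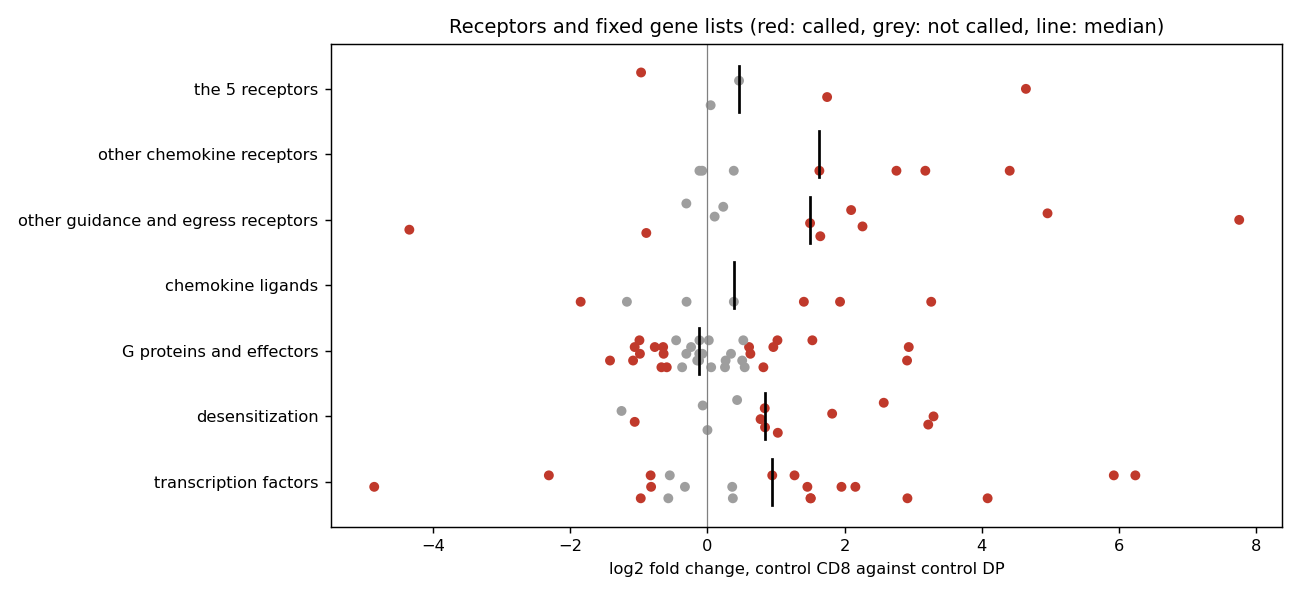
Log2 fold change of each tested gene of the 5 receptors and of the migration lists, control CD8 against control DP cells; red points were called, grey points were not, and black lines are list medians. The largest value among the guidance receptors is *S1pr1* at 7.76 and the lowest *Plxnd1* at -4.35.

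In DP cells, cKO libraries had less *Ccr7* than control libraries, but no receptor passed the main edgeR test, which took libraries as unpaired. Of the 5 receptors, 0 were called by edgeR, against 0.145% of the 11748 genes tested (17 genes). At an unadjusted p under 0.05 there was 1, *Ccr7*, and DESeq2 called the same 1. *Ccr7* was at -1.07 on the log2 scale (standard error 0.23, normal 95% interval -1.52 to -0.62, edgeR BH-adjusted p = 0.133), so that the cKO level was 0.477 of control. It was the only receptor whose groups did not overlap with cKO lower, as seen for 7.20% of genes, and the exact permutation test gave p = 0.1, the smallest that 3 libraries against 3 allow. When replicate numbers entered the edgeR fit as pairs (the blocked fit), it was -1.03 (standard error 0.17, BH-adjusted p = 0.0240) and past the thresholds. DESeq2, the tool that the study's methods name with these thresholds, gave -1.08 (adjusted p = 0.00251). Without the filter on low counts edgeR gave -1.06 (BH-adjusted p = 0.0330), and both values were past the thresholds as well. The call therefore depended on the method, including whether libraries were paired, and the cause was not tested. DP replicate numbers narrowly met the rule for pairs given below, for which the blocked fit is the matching test.

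The other DP receptors were not called. *Ccr4* and *Ccr9* were lower in the cKO than in the control library of each of the 3 replicate numbers. *Ccr4* was at -0.69 (standard error 0.31, edgeR BH-adjusted p = 0.560; exact permutation test, p = 0.2), with 2 of 3 cKO libraries below all controls. In the blocked edgeR fit, where the high *Ccr4* of both libraries numbered 1 is taken up by the block, it was -0.70 (standard error 0.15, BH-adjusted p = 0.0641). *Ccr9* was at -0.24 (standard error 0.13, edgeR BH-adjusted p = 0.652; exact permutation test, p = 0.3) and in the blocked edgeR fit at -0.25 (standard error 0.08, BH-adjusted p = 0.182). *Cxcr3* was at -1.62 (standard error 0.80, edgeR BH-adjusted p = 0.609; exact permutation test, p = 0.2) from few fragments. Its value was -3.28 without DP cKO replicate 3 and -0.99 without DP control replicate 2. *Cxcr4* was at 0.09 (standard error 0.49, edgeR BH-adjusted p = 0.974; exact permutation test, p = 0.6). Its interval, from -0.87 to 1.05, is wide and holds changes of either sign. Of the 5 receptors, 4 had a negative log2 fold change, and their median was -0.69, against -0.00 over the genes tested.

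Markers of more mature thymocytes moved with *Ccr7* in DP cells. Of the 10 genes on that list, 9 were tested and 9 had negative log2 fold changes. Their median was -0.65, against -0.00 over all genes tested. By edgeR 0 of the 9 were called, and 6 had an unadjusted p under 0.05, as did 1079 of all 11748 genes tested. The summed level of the list was 1289, 1114 and 1143 TPM in control and 869, 879.8 and 868 TPM in cKO libraries 1 to 3, with *Cd5* the most abundant gene and *H2-Q7* at 0 in the 6 libraries. *Cd69*, an early marker of positive selection, was at 107, 77.6 and 91.6 TPM in control and at 63.8, 55.1 and 45.6 TPM in cKO libraries (log2 -0.71, standard error 0.14, edgeR BH-adjusted p = 0.129), and was called by DESeq2 and in the blocked fit. *Itm2a*, another gene induced by positive selection, was at 381, 305 and 321 TPM in control and at 199, 225 and 203 TPM in cKO libraries (log2 -0.64, standard error 0.12, edgeR BH-adjusted p = 0.107). For both, each cKO library was below each control library. *S1pr1*, *Il7r*, *Bcl2*, *H2-Q6*, *Cd5* and *Klf2* were at -1.36, -0.995, -0.67, -0.65, -0.36 and -0.28, where *H2-Q6* is uncertain because it belongs to a family of similar genes. The part of mature cells in the difference of *Ccr7* was not tested.

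**Figure D4:**
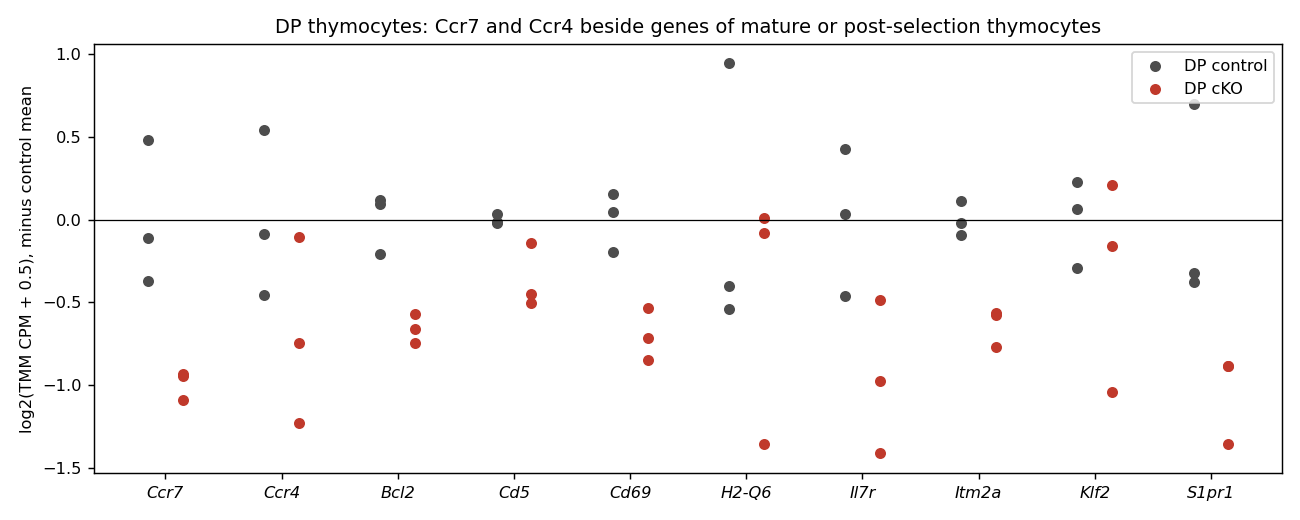
*Ccr7*, *Ccr4* and maturation markers in each DP library, as log2 of normalized CPM with a pseudocount of 0.5, minus the control mean of the gene. In *Ccr7*, *Bcl2*, *Cd5*, *Cd69*, *Itm2a* and *S1pr1* each cKO library lies below each control library, and in *Ccr4*, *H2-Q6* and *Klf2* the genotypes overlap.

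Markers of further cell types were also counted in the DP libraries. On the CD4 lineage list, *Zbtb7b* was at 12.01, 6.90 and 8.45 TPM in control and at 4.14, 4.13 and 4.22 TPM in cKO libraries (log2 -1.08), *Cd40lg* had a log2 fold change of -1.20 and *Cd4*, its most abundant gene, one of 0.04. The summed CD4 lineage list, at 1858, 1472 and 1750.4 TPM in control and 1806, 1578 and 1668 TPM in cKO libraries, follows *Cd4*. The CD8 lineage list summed to 5601, 4575 and 4737 TPM in control and 4654, 3746 and 3994 TPM in cKO libraries, with *Cd8b1* the most abundant. Of its 4 genes, 3 had negative log2 fold changes, and the list median was -0.27. The natural killer and innate-like T cell list summed to 18.3, 24.4 and 11.8 TPM in control and 5.71, 8.53 and 9.16 TPM in cKO libraries, mostly *Il2rb*, with *Ncr1* at 0 in 5 of 6 libraries. The myeloid and dendritic cell list summed to 142, 294 and 125 TPM in control and 67.6, 84.2 and 101 TPM in cKO libraries, with *Cd74* the most abundant and 6 of 8 genes negative. B cell markers summed to 54.7, 61.5 and 41.8 TPM in control and 40.0, 44.7 and 43.3 TPM in cKO libraries, mostly *Cd79b*, with 4 of 4 tested genes negative. Regulatory T cell markers gave 101, 76.4 and 67.2 TPM in control and 93.1, 89.7 and 67.3 TPM in cKO libraries, mostly *Ikzf2*. Thymic epithelium and stroma reached at most 12.3 TPM, with *Foxn1* at 0 in the 6 libraries, and erythroid markers at most 0.641 TPM, with the globin genes at 0. Of 5 gamma-delta T cell markers, the tables hold *Sox13*, at most 1.49 TPM in DP libraries. By edgeR 0 genes of these lists were called in DP cells, although *Zbtb7b* was called by DESeq2 and in the blocked fit, and the share of any of these cells in the lower *Ccr7* was not tested. The 10 DP cell markers were split, 5 with positive and 5 with negative log2 fold changes, and the 4 cycling markers were positive with a median of 0.35, with *Mki67* at 142, 83.9 and 55.4 TPM in control and 297, 106 and 71.8 TPM in cKO libraries 1 to 3. *Mki67* was thus highest in library 1 of either genotype, as was *Cxcr4*, and the relation was not tested.

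Among genes of the pathway, *Gng2* alone was called in DP cKO cells, where 0.145% of the 11748 genes tested were called and 1079 had an unadjusted p under 0.05. It was at 10.95, 7.08 and 6.12 TPM in control and at 1.94, 2.15 and 2.07 TPM in cKO libraries, with a log2 value of -1.91 (standard error 0.25, edgeR BH-adjusted p = 0.0315). It was 1 of 35 G proteins and effectors tested, whose median was -0.08, and *Dock2*, which links chemokine receptors to Rac, was called with it by DESeq2 and in the blocked fit. Leaving out any 1 DP library ended its edgeR call, in fits that called at most 8 genes over the whole table. By edgeR 0 of 5 other chemokine receptors were called (2 at an unadjusted p under 0.05, 0 by DESeq2), and the 5 were negative with a median of -1.08, the most abundant being *Ccr8* at 3.82 ± 1.59 TPM in control and 1.82 ± 0.170 TPM in cKO cells (SD, n = 3). Among guidance receptors 0 of 11 were called by edgeR (3 at an unadjusted p under 0.05), DESeq2 and the block called 1, *Cd69*, and the most abundant, *Plxnd1*, was at 525 ± 83.9 and 518 ± 32.7 TPM (SD, n = 3). Of 6 ligands 0 were called by edgeR or DESeq2 (1 at an unadjusted p under 0.05), with *Ccl5* at 7.36 ± 2.74 TPM the most abundant in control and *Ccl25* at 7.81 ± 1.66 TPM the most abundant in cKO cells (SD, n = 3). Of 13 desensitization genes edgeR and DESeq2 called 0, with 0 at an unadjusted p under 0.05 and *Grk2* the most abundant. Of 20 transcription factors edgeR called 0 (6 at an unadjusted p under 0.05), DESeq2 called *Zbtb7b*, the block *Zbtb7b* and *Egr1*, and *Tcf7* was the most abundant.

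In CD8 cells, cKO and control libraries overlapped for the 5 receptors, and 0 were called by edgeR, DESeq2 or the blocked fit, with 0 at an unadjusted p under 0.05, against 0.0980% of the 11227 genes tested (11 genes). *Ccr7* was at -0.16 on the log2 scale (standard error 0.27, 95% interval -0.68 to 0.36, edgeR BH-adjusted p = 0.979; exact permutation test, p = 0.667). *Ccr9* was at -0.08, *Ccr4* at -0.01, *Cxcr4* at 0.18 and *Cxcr3* at 0.36, with standard errors of 0.15, 0.46, 0.19 and 0.32 and edgeR BH-adjusted p-values of 0.980, 0.999, 0.979 and 0.979. The exact permutation p-values, in the same order, were 0.611, 0.786, 0.603 and 0.373, where the smallest possible is 0.00794. Intervals for *Ccr9*, from -0.36 to 0.21, leave less room for a change than those for *Ccr4*, from -0.91 to 0.89. Leaving out the library labelled CD8 cKO replicate 4 gave -0.30 for *Ccr7*, 0.17 for *Ccr4*, -0.01 for *Ccr9*, 0.05 for *Cxcr4* and 0.43 for *Cxcr3*, and no receptor was called. Without CD8 cKO replicate 1, the library with most *Cxcr3*, that of *Cxcr3* was 0.06.

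The pathway lists held no call in CD8 cKO cells either. By edgeR and by DESeq2, 0 were called of 5 other chemokine receptors (2 at an unadjusted p under 0.05), 11 guidance receptors (2), 5 ligands (0), 35 G proteins and effectors (2), 12 desensitization genes (2) and 21 transcription factors (1). Over all 11227 genes tested by edgeR, 629 had an unadjusted p under 0.05. List medians were 0.26, 0.11, 0.42, 0.06, -0.08 and -0.00, against -0.01 over the genes tested. Among the most abundant members were *Ccr8*, at 36.6 ± 9.54 TPM in control and 44.9 ± 10.5 TPM in cKO cells, *Xcl1* at 38.8 ± 3.42 and 51.9 ± 19.5 TPM, *Rac2* at 1480.2 ± 66.2 and 1563 ± 168 TPM, *Grk2* at 579.9 ± 45.1 and 618.3 ± 40.6 TPM and *Tcf7* at 4011 ± 1195 and 3842 ± 762 TPM (SD, n = 5 in each group). By edgeR 0 genes of the marker lists were called in CD8 cKO cells. *Gng2*, lower in DP cKO cells, was at 63.3 ± 7.78 and 51.7 ± 11.6 TPM (SD, n = 5) in CD8 control and cKO cells.

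Whether the cKO change differed between the cell types was asked of an edgeR interaction term over the 4 groups, called at an adjusted p under 0.05. Of the 5 receptors, 0 were called, against 0.107% of the 12131 genes tested (13 genes), 1 had an unadjusted p under 0.05 and DESeq2 called 0. The difference of the log2 changes, CD8 minus DP, was 0.90 for *Ccr7* (standard error 0.43, edgeR BH-adjusted p = 0.948), 1.95 for *Cxcr3* (standard error 0.80, edgeR BH-adjusted p = 0.868, and 1.33 to 3.64 with 1 library left out), 0.68 for *Ccr4*, 0.17 for *Ccr9* and 0.09 for *Cxcr4*. With replicate numbers as a block, the difference for *Ccr7* was 0.88 (edgeR BH-adjusted p = 0.0309) and called. CD8 numbers did not meet the pairing rule, which pair 5 missed at 0.0908 against a limit of 0.1. Whether the lower *Ccr7* is particular to DP cells therefore depends on the fit.

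Among CD8 libraries of the same group, *Ccr4* and *Ccr9* varied together and *Ccr7* the other way. Deviations of log2 CPM from the 4 group means correlated over the 16 libraries at r = 0.919 for *Ccr4* with *Ccr9*, -0.744 for *Ccr4* with *Ccr7* and -0.704 for *Ccr7* with *Ccr9*, where the points share their libraries and their depth. The negative values come from CD8 cells, since in DP control cells library 1 was the highest in *Ccr4*, *Ccr9* and *Ccr7*. The other 7 pairs of receptors lay between -0.22 and 0.40. In CD8 cells, *Rag1* and *Cd4*, genes of the DP stage, were higher in libraries 1 and 2, with more *Ccr4* and *Ccr9*, than in libraries 3 to 5. *Rag1* was at 43.4, 60.1, 10.8, 5.57 and 7.36 TPM in CD8 control and at 37.2, 48.1, 12.1, 15.8 and 12.4 TPM in CD8 cKO libraries 1 to 5. *Klf2*, like *Ccr7*, was lower in libraries 1 and 2, at 585, 477, 1425, 1599 and 1242 TPM in control and at 429.5, 476, 1395, 1495 and 898 TPM in cKO libraries. The split between libraries 1 and 2 and libraries 3 to 5 was thus present in both genotypes, and how it arose was not tested.

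**Figure D5:**
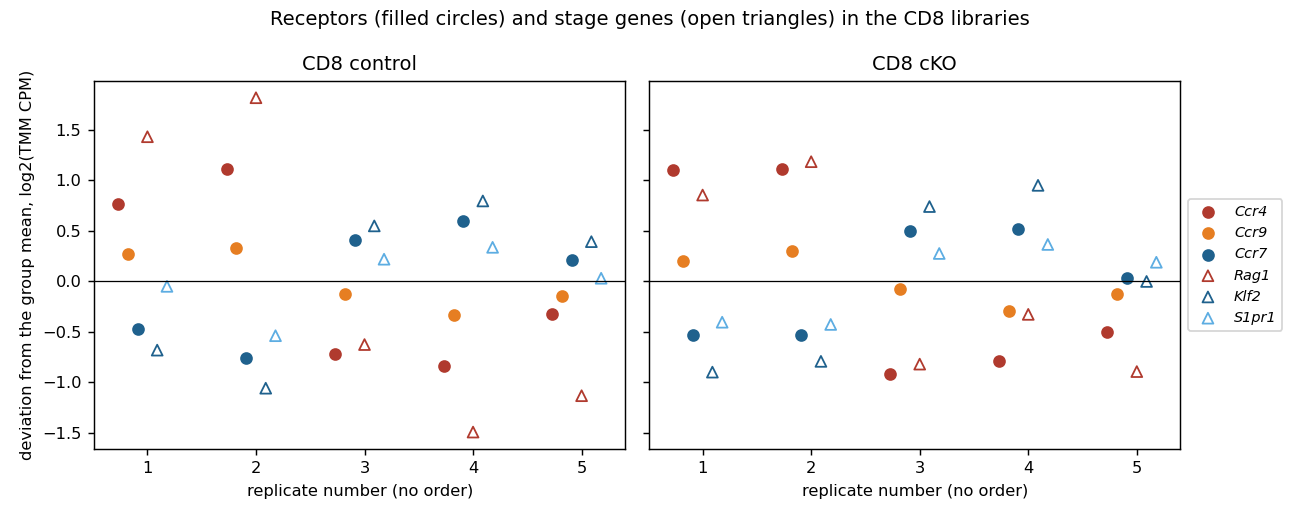
Deviation of each gene from its group mean in each CD8 library, in log2 of normalized CPM, with control libraries on the left and cKO libraries on the right; filled circles are receptors and open triangles are stage genes, set side by side at each replicate number. *Ccr4*, *Ccr9* and *Rag1* lie above 0 and *Ccr7*, *Klf2* and *S1pr1* below 0 in libraries 1 and 2 of both genotypes.

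The genes most like each receptor were sought among 12130 other genes. Over the levels of the 16 libraries, which mostly follow cell type, those close to *Ccr7* included *Ripor2* and *Igfbp4* (each r = 0.995), and the closest were *Ttbk2*, *Rag2* and *Syk* to *Ccr9* (0.981, 0.977 and 0.973) and *Cd83*, *Ccl5* and *Mapre2* to *Cxcr3* (0.956, 0.946 and 0.934). *Hecw2*, *Prrt2* and *Entpd7* were closest to *Ccr4* (0.895, 0.891 and 0.871) and *Hipk1*, *Rprd1b* and *Atp6v1c1* to *Cxcr4* (0.844, 0.842 and 0.839). By deviations from group means over the same libraries, *Brd3*, *Nab2* and *Mex3a* were closest to *Ccr4* (0.980, 0.965 and 0.959) and *Prrt2*, *Entpd7* and *Pwwp2a* to *Ccr9* (0.954, 0.947 and 0.941), so that *Prrt2* and *Entpd7* were near both. *B4galt1*, *Atp1b3* and *Cd53* were closest to *Ccr7* (0.943, 0.938 and 0.927), *Gpr65*, *Clec2d* and *Cnot8* to *Cxcr4* (0.910, 0.885 and 0.885) and *Hist1h2bc*, *Cdh5* and *Cd74* to *Cxcr3* (0.837, 0.825 and 0.799).

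Of 6 tested genes next to the receptors, 1 was called between the cell types, against 44.3% of all genes tested (22.0% higher, 22.3% lower). *Fyco1*, 6042 bases from *Ccr9* on the opposite strand, was higher in control CD8 than in control DP cells (log2 0.63, edgeR BH-adjusted p = 0.00133), while *Ccr9* was lower. *Lztfl1*, on the other side of *Ccr9* at 49585 bases, was at -0.40 and not called. *Smarce1*, 53970 bases from *Ccr7*, was at -0.45 and *Dars*, 170782 bases from *Cxcr4*, at -0.58, both short of a fold change of 1.5. *Glb1*, 15936 bases from *Ccr4*, was at -0.12 and *Ogt*, 47183 bases from *Cxcr3*, at -0.30. The neighbours on the other sides of *Ccr4*, *Ccr7*, *Cxcr3* and *Cxcr4*, which are *Trim71*, *Tns4*, *8030474K03Rik* and *Thsd7b*, were too low to be tested. None of the 6 tested neighbours was called by edgeR in DP or CD8 cKO cells.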

How the data were processed

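RNA-seq counts per gene and exonic lengths were taken from the deposited tables of 6 DP and 10 CD8 libraries. Per the labels and the methods, the authors made the counts with fastp 0.13.1, HISAT2 2.1.0 (mm10) and featureCounts 1.6.1. The 5 receptors were found by gene symbol. Members and gene lists were chosen with earlier results of these data known. Each comparison was fitted within its libraries with edgeR 4.0.16 (TMM scaling, filterByExpr, quasi-likelihood F test, BH adjustment) and its dependency limma 3.58.1 in R 4.3.3. Calls needed 3 things together: adjusted p under 0.05, 1.5-fold or more between the means, and mean TPM not below 1. The interaction needed the first. Alternatives were DESeq2 1.42.0, other size factors, no low-count filter, no fold change or TPM minimum, a joint fit, a replicate block and each library left out. Fits of CD8 numbers 3 to 5, CD8 numbers 3 and 4 and DP numbers 2 and 3 were added after seeing the data. Exact permutation tests used log2 of normalized CPM plus 0.5. The 95% intervals are normal approximations from the standard error, narrower than the F test gives with so few libraries. Tables, correlations and figures used Python 3.11.15, scipy 1.17.1 and matplotlib 3.10.9. The code was tested on simulated data. Some genes are not reported here.

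The labels give replicate numbers and no litters. Deviations of DP libraries of the same number correlated at 0.643, 0.120 and 0.290, each over the limit of 0.1. DP numbers thus met the rule for pairs. The main edgeR fits and the permutation tests still took libraries as unpaired, and the blocked fit is given beside them as an alternative. The margin is narrow: over the genes of the 4-group fit pair 2 is at 0.0954, and numbers 2 and 3 correlated better with each other, at 0.324 and 0.297. The blocked fit had been seen when this was settled. In CD8 cells pair 5 was at 0.0908, just under the limit, and the numbers were not taken as pairs. *Xist* was nonetheless high in numbers 1, 2 and 5 of both genotypes, and *Ddx3y* in numbers 3 and 4 of both. *Cd4* was likewise higher in numbers 1 and 2 of both, so pairing by number in CD8 cells was not excluded.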

Additional observations from a re-analysis of the deposited data

Results flagged for a closer look

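*Cxcr3* in CD8 cKO cells had 1 library far from the others: replicate 1 was at 16.5 TPM and the next at 8.36 TPM, a gap of 0.888 of the range. The summed TPM of the DP cell markers had 1 such library in CD8 cKO cells, the library labelled replicate 4, at 3737 against 3168 to 3239.6 in the others, a gap of 0.874 of the range. In CD8 cells this sum is mostly *Cd8b1* and *Cd8a*, which CD8 cells express themselves, with *Cd8b1* at 2055 TPM in that library, and *Rag1* there, at 15.8 TPM, did not stand apart. The limit for 5 libraries was 0.71. Of 18 groups looked at, 2 stood apart, and by chance about 1 in 20 would. The cause was not tested.

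The cKO change differed between the cell types for *Gng2*, by 1.58 on the log2 scale (edgeR BH-adjusted p = 0.0196), and for *Bcl2*, by 0.79 (edgeR BH-adjusted p = 0.0499). Both were lower in DP cKO than in DP control libraries, *Gng2* at -1.91 and *Bcl2* at -0.67. The interaction call of *Gng2* ended in 6 of the 16 fits with 1 library left out. That of *Bcl2*, close to the threshold, ended at least without DP control replicate 2 and without DP cKO replicate 2, where 0 genes were called. The cause was not tested.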

How the results depend on the processing

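The log2 changes of the receptors kept direction and side of the threshold in 54 of 60 values for DP cKO against control, 72 of 80 in CD8 cells, 68 of 75 for control CD8 against DP and 100 of 105 for the interaction. In DP cells 17 genes were called, 159 by DESeq2, 74 with no filter, 42 with the 4 groups in one fit, 72 with numbers 2 and 3 alone and 0 to 8 with 1 library left out. In CD8 cells 11 were called, 46 by DESeq2, 5 with numbers 3 to 5 alone and 4 to 20 with 1 library left out, and for the interaction 13, 36, 5 and 0 to 11. *Ccr7* in DP cells was the 1 receptor called by DESeq2 (-1.08) and with no filter (-1.06). With 1 library left out, *Cxcr4* ran from -0.55 to 0.78 in DP cells, from 0.18 to 1.15 between the cell types, where it was called without DP control replicate 1, and from -0.60 to 0.74 for the interaction. *Ccr4* ran from -0.32 to 0.35 in CD8 cells and from -0.30 to 0.36 between the cell types. *Ccr7* ran from -0.31 to 0.00077 and *Ccr9* from -0.16 to 0.015 in CD8 cells. *Ccr4* was at 0.0025 in CD8 cells with no filter, and between the cell types at -0.79 with CD8 numbers 3 to 5 and -0.95 with numbers 3 and 4 alone. The cause was not tested. Bulk counts cannot tell cell mixture from RNA per cell, 3 libraries a group detect large changes only, and *Cxcr3* is limited by depth.

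With replicate numbers as a block, 131 genes were called in DP cells, 31 in CD8 cells and 33 for the interaction. In DP cells 1 receptor, *Ccr7*, was called (-1.03), and the block changed no other receptor's call there. For the interaction 1 was called under the block, *Ccr7* (0.88, edgeR BH-adjusted p = 0.0309), and the receptors of CD8 cells kept their calls. Between the cell types, with numbers 1 to 3 alone under the block, 4885 genes and 3 receptors were called. CD8 libraries of the same number correlated at 0.365, 0.299, 0.318, 0.313 and 0.0908, and did not each correlate best with their own number.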
